A study of Mus musculus with 8 samples.

Results

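The subject is the difference in translational efficiency between resting B cells and resting T cells of the mouse spleen, gene by gene. Translational efficiency is taken here as the footprints of a gene relative to its mRNA. The difference is the log2 footprint-to-mRNA ratio in B cells minus the same ratio in T cells, so a value above 0 means more footprints per mRNA in B cells. The genes described were chosen by their measured footprints alone, as those with 100 or more counts summed over the 4 footprint libraries. There were 2553 such genes among 53801 gene IDs, and 13227 genes in all were tested. All 2553 passed the filter on low counts, and 2429 of them were protein-coding. T cell footprint library 1 was the deepest of the 4, and 1300 of the 2553 genes reached 100 counts in that library alone, so a gene with many T cell footprints entered the set more easily than a gene with many B cell footprints.

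The cells came from spleens of B6 mice, were isolated with a magnetic sorting kit and were kept for 2 h in complete RPMI medium. The 8 libraries formed 4 groups of 2, which were footprints of B cells (numbers 1 and 3 in the labels), footprints of T cells (1 and 2), mRNA of B cells (1 and 3) and mRNA of T cells (1 and 4). Cells for footprints received 15 min of cycloheximide, a blocker of elongation, at 100 µg/ml, and were lysed and digested with RNases A and T1 and S7 nuclease, and RNA was taken from the monosomes. Cells for mRNA had no treatment, and their total RNA went into a TruSeq RNA v2 library. No allele or other agent is named for either cell type, and the age of the mice and any pooling of spleens are not stated in the sources used here.

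Ribosome profiling sequences the pieces of mRNA that ribosomes shield from nuclease. Read against mRNA abundance, the footprints show how heavily an mRNA is occupied by ribosomes, which depends on how often translation starts and on how fast ribosomes move. Known controls that act on translation include 5′ terminal oligopyrimidine tracts under mTOR, upstream open reading frames, iron-responsive elements in ferritin mRNAs, and a block on initiation in quiescent lymphocytes that is lifted on activation.

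The footprint libraries were far shallower than the mRNA libraries. Total footprint counts were 236810 and 232568 for the B cell libraries and 627833 and 136433 for those of T cells, against 8945905 to 10050986 in the mRNA libraries. CPM below denotes counts after scaling every library to the same size with edgeR's TMM factors. Before these factors, a single footprint read was worth between 1.59 and 7.33 CPM. For the median gene of the set, the libraries of a group lay 0.48 apart on the log2 scale in B cell footprints and 0.43 in T cell footprints, against 0.19 and 0.20 in mRNA. Small structured RNAs took 3.11% to 19.1% of footprint counts. The median of 9 B cell markers in T cells stood at 1.49% and 5.27% of its B cell level in footprints and at 0.667% and 1.69% in mRNA. The median of 11 T cell markers in B cells stood at 1.18% and 5.64% of its T cell level in footprints and at 0.711% and 9.91% in mRNA, where the higher value in each assay was that of the library numbered 3. In sorted populations read in bulk, fewer cells of a type and less RNA per cell cannot be told apart.

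Most of the difference between B and T cells in footprints was already present in mRNA. Over the 2553 genes the footprint difference followed the mRNA difference with a Pearson correlation of 0.832, a Spearman correlation of 0.646 and a total least squares slope of 1.15. Over the 2417 genes with 5 CPM or more in each group, these were 0.863, 0.664 and 1.09. The points are genes that share the same 8 libraries and are not independent replicates. The difference in translational efficiency had a median of -0.01 and quartiles of -0.40 and 0.39, and 90% of the genes, from the 5th to the 95th percentile, lay between -1.16 and 1.05. The median standard error of a gene was 0.44, close to the quartiles themselves. Of the 2553 genes 1269 lay above 0 and 1284 below.

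**Figure D1:**
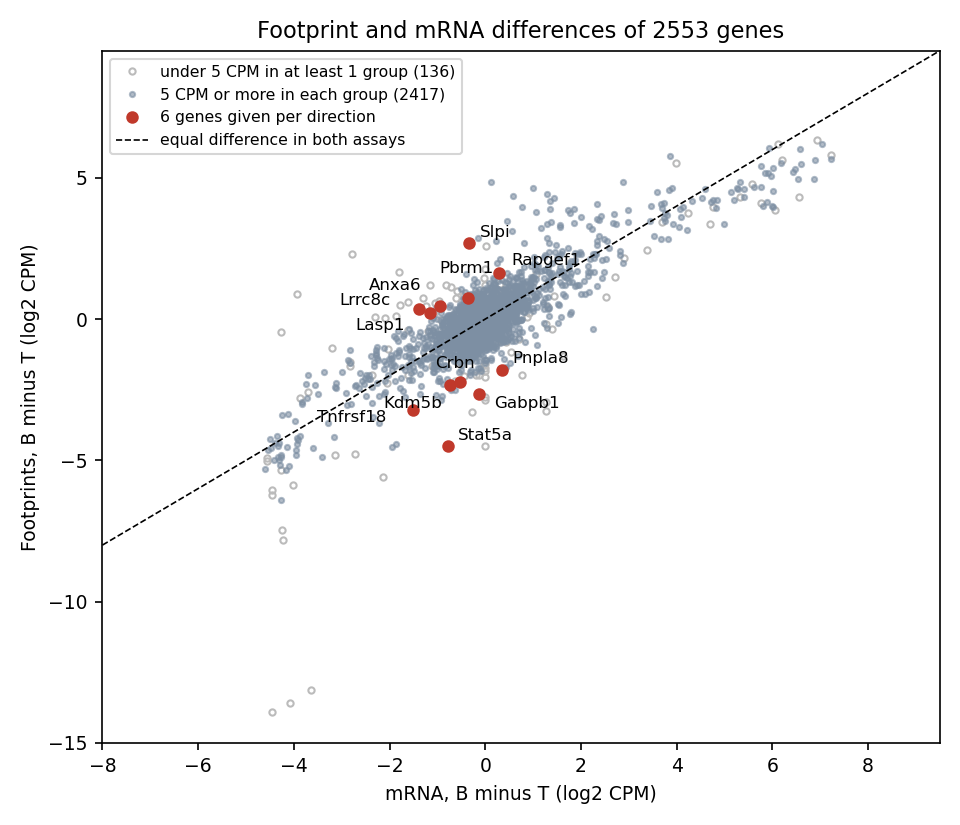
Each point is 1 of the 2553 genes, with the mRNA difference between B and T cells on the horizontal axis and the footprint difference on the vertical axis, both in log2 CPM from edgeR. The dashed line marks an equal difference in both assays, and most points lie near it, while Stat5a and Gabpb1 lie below it and Slpi above it. The 3 points at the foot have no footprint count in B cells, so their height depends on the prior count.

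With edgeR's quasi-likelihood test and Benjamini-Hochberg adjustment over all genes tested, 0 genes had higher and 0 had lower translational efficiency in B cells at an adjusted p under 0.05 (0% of the 13227 tested in either direction). The lowest adjusted p was 0.834. At an unadjusted p under 0.05 edgeR gave 64 genes higher and 107 lower in B cells among the 2553, or 2.51% and 4.19%, against 2.83% and 2.85% of all genes tested. Both directions together came to 6.70% of the set and 5.68% of all genes tested. Genes with many T cell footprints entered the set more easily, so the balance of directions within it is not separate from that choice. These counts and their balance moved with single libraries and the scaling, being 151 and 156 without T cell footprint library 1, 26 and 154 without T cell footprint library 2, 126 and 263 without B cell footprint library 3, 58 and 205 without B cell footprint library 1, 23 and 108 without T cell mRNA library 1 and 48 and 131 with TMM scaling within each assay. DESeq2, which applied an adjusted p to 3482 genes, called 2 genes higher (0.0574%) and 8 lower (0.23%), and limma voom called 0 and 0. All 10 DESeq2 genes belong to the set. They were Lrrc8c and Lasp1 in the direction of B cells, and Gabpb1, Stat5a, Il4ra, Gimap6, P2ry10, Birc3, Il21r and Crbn in the direction of T cells. The labels do not say whether the libraries of a group were made from different animals. Sex-linked counts differed between the mRNA libraries of each cell type and between the T cell footprint libraries, so these were not made from the same mice, and the B cell footprint libraries could not be told apart in this way.

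Ranges of the libraries gave a similar picture. In 276 genes all 4 footprint-to-mRNA ratios that could be formed within B cells lay above all 4 within T cells, and in 310 genes they lay below. These were 10.8% and 12.1% of the set, against 14.2% and 13.9% of all genes tested. A difference of 2-fold or more was seen in 143 genes towards B cells and 175 towards T cells (5.60% and 6.85%), against 16.6% and 16.6% of all genes tested. Most genes tested had under 100 footprint counts, and the balance of directions within the set shares the entry bias described above. At the entry threshold, the 30 genes with exactly 100 footprint counts ran from -0.84 to 2.00 with a median of 0.39. The 27 genes with 99 counts, just outside, ran from -0.995 to 3.53 with a median of -0.10.

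**Figure D2:**
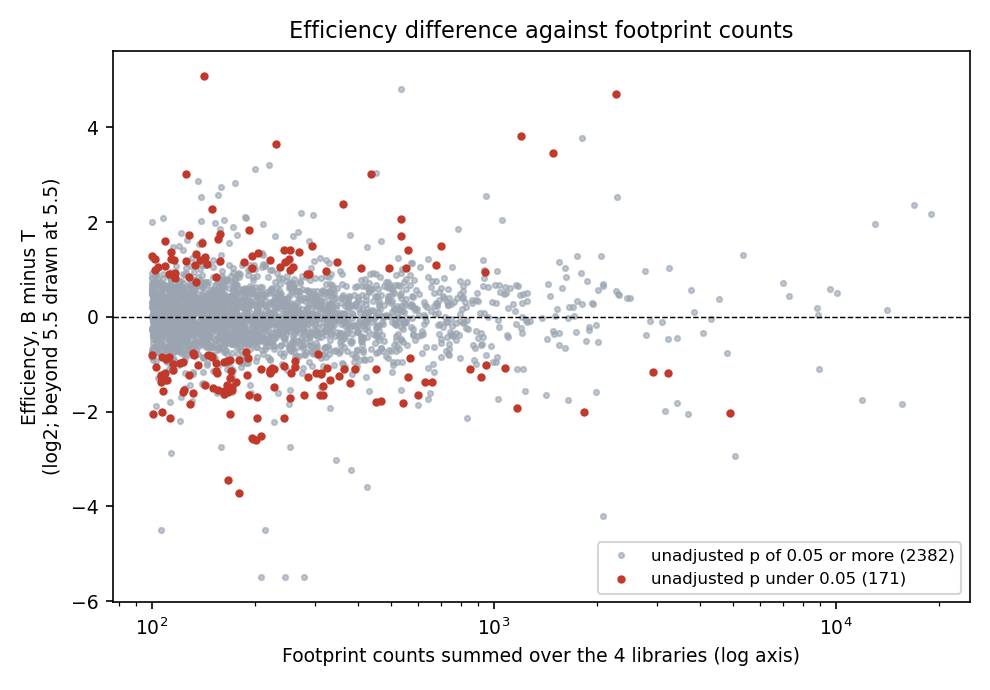
Each point is 1 gene, with its footprint counts summed over the 4 libraries on a log axis and its difference in translational efficiency (B minus T, log2) on the vertical axis, and values beyond the axis are drawn at its edge. Red points, 171 in all, had an unadjusted edgeR p under 0.05, and they lie at both low and high footprint counts.

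The genes furthest towards T cells included a STAT transcription factor and a partner of an ETS factor. Gabpb1 encodes the beta subunit of GABP, which pairs with an ETS-domain subunit to activate nuclear genes of mitochondrial function, and lies on chromosome 2, 126628907 to 126684435 in GRCm38.p6. Its footprints stood at 28.4 and 45.4 CPM in the B cell libraries and at 241 and 214 CPM in the T cell libraries, while its mRNA stood at 33.3 and 35.4 CPM in B cells and at 35.2 and 39.8 CPM in T cells. Both B cell footprint libraries were far below both T cell libraries, whereas the mRNA levels lay close together. The difference in translational efficiency was -2.52 ± 0.38 (log2 ± SE, n = 2 libraries a group), with an adjusted p of 0.834 in edgeR and 4.05e-05 in DESeq2. The B cell values rest on 7 and 10 footprint counts, and Gabpb1 overlaps A630026N12Rik and Gm18720 in the annotation.

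Stat5a, a transcription factor that carries signals from cytokine receptors such as those for interleukins 2 and 7, lies on chromosome 11, 100859351 to 100885169. It had 8.12 and 13.6 CPM of footprints in B cells against 193 and 314 CPM in T cells, and 37.2 and 47.3 CPM of mRNA in B cells against 77.8 and 68.0 CPM in T cells. Its groups did not overlap in either assay, and the gap in footprints was the wider. The difference in translational efficiency was -3.72 ± 0.56, with an adjusted p of 0.834 in edgeR and 0.00509 in DESeq2, and it rests on 2 and 3 footprint counts in the B cell libraries. Stat5b, the neighbouring and closely related gene, had 60.9 and 59.1 CPM of footprints in B cells against 238 and 274 CPM in T cells, with mRNA at 93.0 and 102 CPM against 205 and 178 CPM. Its groups were also separate in both assays, and its difference was -1.10 ± 0.35 (unadjusted p = 0.0130 in edgeR). How reads that match both STAT5 genes were counted is not stated. Of 12 genes in the list of JAK, STAT and IRF genes, 4 lay above 0 and 8 below, with a median of -0.32 against -0.01 for the set, and Stat5a and Stat5b were the 2 with an unadjusted p under 0.05. Jak1, a kinase bound to many of these receptors, stood at 0.29 ± 0.38.

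Several single cytokine receptor genes also lay towards T cells, in a list that was evenly split around 0. Il4ra encodes the interleukin 4 receptor alpha chain (chromosome 7, 125552271 to 125579474). It had 406 and 350 CPM of footprints in B cells against 583 and 628 CPM in T cells, but 323 and 369 CPM of mRNA in B cells against 215 and 209 CPM in T cells. Footprints were thus higher in both T cell libraries and mRNA was higher in both B cell libraries. The difference in translational efficiency was -1.38 ± 0.35, with an adjusted p of 0.875 in edgeR and 0.000171 in DESeq2. Il21r, the interleukin 21 receptor gene beside it on the chromosome (125603252 to 125634397), had 154 and 282 CPM of footprints in B cells against 521 and 655 CPM in T cells, with mRNA at 213 and 217 CPM against 144 and 184 CPM. As for Il4ra, the 2 assays pointed in opposite directions without overlap, and the difference was -1.82 ± 0.46 (adjusted p of 0.875 in edgeR and 0.0477 in DESeq2).

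The 2 chains of the interferon gamma receptor lay in the same direction. Ifngr1, the ligand-binding chain, had 166 and 273 CPM of footprints in B cells against 1153 and 2031 CPM in T cells, and 72.4 and 96.8 CPM of mRNA against 143 and 180 CPM (-1.92 ± 0.54, unadjusted p = 0.00645 in edgeR). Ifngr2, the signalling chain, had 16.2 and 100 CPM of footprints in B cells against 91.9 and 134 CPM in T cells, with mRNA at 79.4 and 94.5 CPM against 37.8 and 44.4 CPM (-2.00 ± 0.74, unadjusted p = 0.0248 in edgeR). The footprints of Ifngr2 overlapped between the cell types, and its lower B cell library rests on few counts. Ifnar1, a chain of the type I interferon receptor, stood at -1.11 ± 0.41. In the whole list of 32 cytokine and homing receptors 16 genes lay above 0 and 16 below, with a median of 0.11 (-0.47 without B cell footprint library 3). At an unadjusted p under 0.05 in edgeR 5 of the 32 lay towards T cells, as did 4.19% of the set and 2.85% of all genes tested. On the other side, the integrin beta 1 gene Itgb1 (1.02 ± 0.39) and the interleukin 6 receptor gene Il6ra (1.29 ± 0.53, or 0.74 without B cell footprint library 3) had an unadjusted p under 0.05 in edgeR. Il2rg, the chain shared by the receptors for interleukins 2, 4, 7 and 21, stood at -0.72 ± 0.36. Ifnar1, Ifngr1, Ifngr2 and Il2rg were named after their values were seen.

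**Figure D3:**
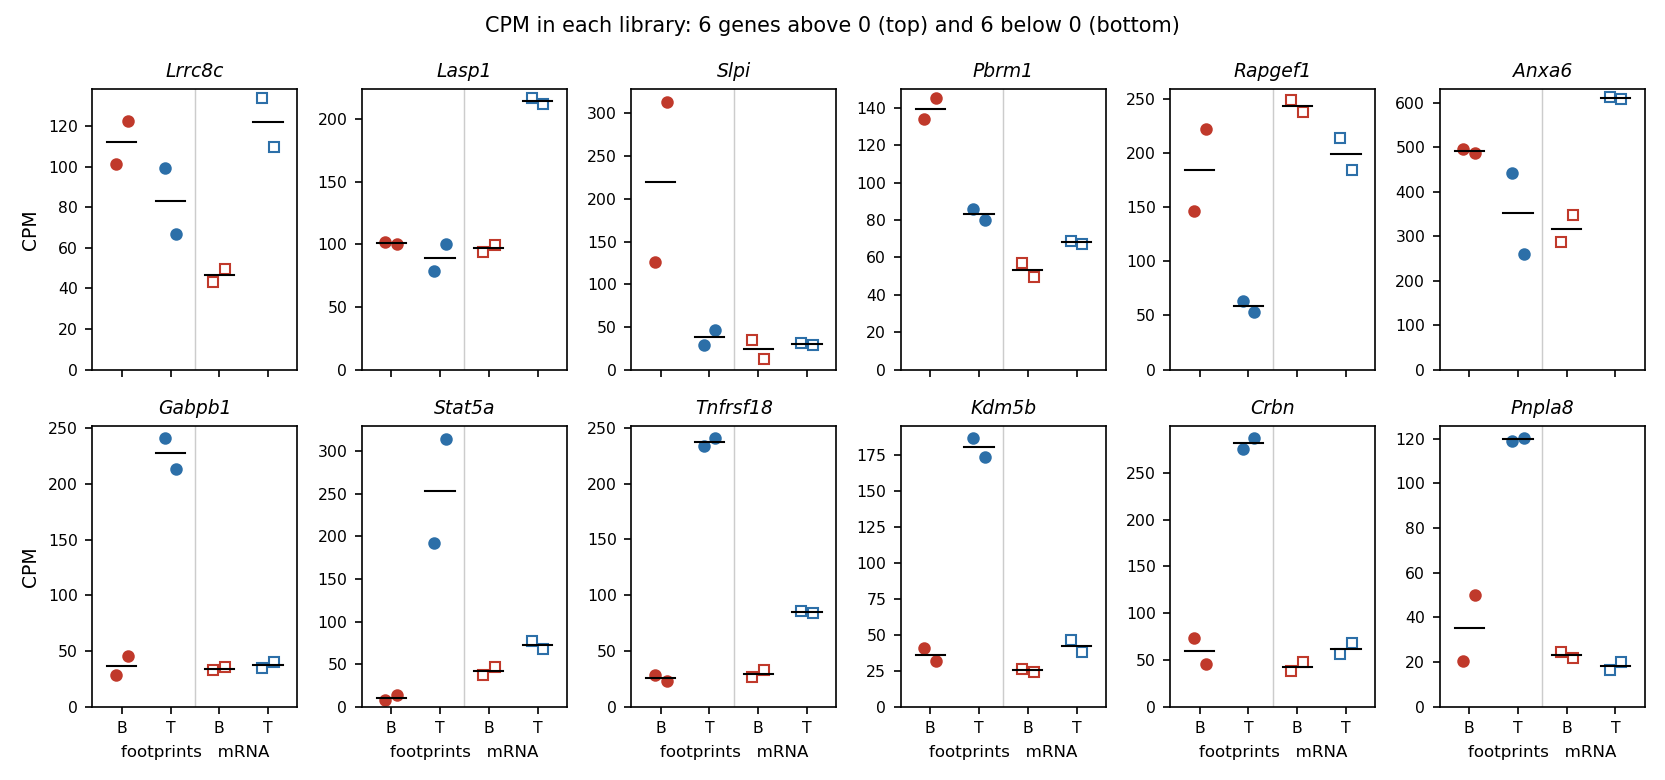
CPM in each library for the 6 genes per direction with the smallest edgeR p (top, above 0; bottom, below 0). Filled circles are footprints, open squares mRNA, red B cells and blue T cells, bars are means of 2 libraries, and each panel has its own scale from 0. In the bottom row the B cell footprints lie below the T cell footprints in every panel, and Gabpb1 and Pnpla8 show no such gap in mRNA.

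Of the other genes given by rank towards T cells, Tnfrsf18, Crbn and Kdm5b had, like Stat5a, lower levels in B cells in both assays, and footprints lower by the larger factor. Tnfrsf18, the costimulatory receptor GITR of activated and regulatory T cells, had 28.4 and 22.7 CPM of footprints in B cells against 234 and 241 CPM in T cells, and 26.7 and 32.8 CPM of mRNA against 85.6 and 84.4 CPM (-1.69 ± 0.38). Crbn, the cereblon substrate receptor of a ubiquitin ligase, had 73.1 and 45.4 CPM of footprints against 276 and 287 CPM, with mRNA at 38.2 and 47.7 CPM against 56.2 and 67.9 CPM (-1.70 ± 0.40, adjusted p of 0.875 in edgeR and 0.0485 in DESeq2). Kdm5b, a histone H3 lysine 4 demethylase, stood at -1.58 ± 0.37, and Pnpla8, a mitochondrial phospholipase, stood at -2.13 ± 0.50 with slightly more mRNA in B cells. All 4 footprint pairs were apart without overlap. Tnfrsf18 overlaps Gm16008, Crbn overlaps Trnt1 and Kdm5b overlaps Mgat4e, and the sources used here do not say whether the counting used strand.

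P2ry10, a lysophospholipid receptor gene, had 605 and 650 CPM of footprints in B cells against 2107 and 1002 CPM in T cells, with mRNA at 126 and 111 CPM against 74.3 and 71.5 CPM (-2.01 ± 0.51, adjusted p of 0.0123 in DESeq2). Birc3, an inhibitor of apoptosis induced by NF-kappaB, had 142 and 232 CPM of footprints in B cells against 172 and 180 CPM in T cells, with mRNA at 211 and 241 CPM against 77.5 and 74.5 CPM (-1.49 ± 0.40, adjusted p of 0.0406 in DESeq2). Its mRNA was higher in both B cell libraries, and its footprints overlapped between the cell types. Gimap6, a GTPase of the lymphocyte GIMAP family, had 1238 and 986 CPM of footprints against 3438 and 2840 CPM, with mRNA at 607 and 730 CPM against 771 and 884 CPM (-1.19 ± 0.42, adjusted p of 0.0118 in DESeq2). For P2ry10 and Gimap6 the footprints of both T cell libraries lay above those of both B cell libraries.

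Towards B cells, 3 of the 6 genes given by rank had mRNA that was lower in B cells by a larger factor than their footprints differed. Lrrc8c encodes a subunit of volume-regulated anion channels (chromosome 5, 105519345 to 105613018). Its footprints stood at 101 and 123 CPM in B cells against 99.5 and 66.8 CPM in T cells, and its mRNA at 43.4 and 49.8 CPM against 134 and 110 CPM. Its footprints were slightly higher in both B cell libraries, by less than the spread of the T cell libraries, and its mRNA was lower in both B cell libraries. The difference was 1.74 ± 0.39, with an adjusted p of 0.875 in edgeR and 0.0406 in DESeq2, and T cell footprint library 2 held 10 counts. Lasp1, an actin-binding adaptor (chromosome 11, 97799005 to 97838765), had 101 and 100 CPM of footprints against 78.4 and 100 CPM, with mRNA at 93.7 and 99.8 CPM against 217 and 212 CPM (1.37 ± 0.35, adjusted p of 0.875 in edgeR and 0.0485 in DESeq2). Anxa6, a calcium-dependent membrane-binding annexin, also had less mRNA in B cells, with 495 and 486 CPM of footprints against 443 and 261 CPM and mRNA at 286 and 347 CPM against 614 and 609 CPM (1.40 ± 0.43). Its B cell footprints lay above both T cell libraries, while those of Lasp1 overlapped with them.

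In the other 3 genes given by rank towards B cells the footprints were higher in both B cell libraries by a larger factor than the mRNA differed. Rapgef1, an exchange factor for the GTPase Rap1, had 146 and 223 CPM of footprints in B cells against 63.3 and 53.5 CPM in T cells, with mRNA at 250 and 238 CPM against 214 and 185 CPM (1.33 ± 0.41). Pbrm1, a subunit of the PBAF chromatin remodelling complex, had 134 and 145 CPM of footprints against 85.9 and 80.2 CPM (1.09 ± 0.32). Slpi, a secreted inhibitor of leukocyte proteases that neutrophils and other cells make, had 126 and 314 CPM of footprints against 28.6 and 46.8 CPM, with mRNA at 34.8 and 12.4 CPM against 31.1 and 28.2 CPM (3.02 ± 0.84). In T cell footprint library 2 the values rest on 8 counts for Rapgef1, 12 for Pbrm1 and 7 for Slpi. B cell footprint library 3, with the higher Slpi value, also held the most counts of 4 neutrophil markers, 650 CPM in sum. This sum was 8.12 CPM in B cell footprint library 1, 36.2 and 221 CPM in the T cell footprint libraries and 2.05 to 11.5 CPM in mRNA. The part of neutrophils in the Slpi values was not tested. Slpi stood at 2.18 without B cell footprint library 3, and at 1.53 without both B cell libraries numbered 3, a setting chosen after seeing the data. Slpi overlaps Mir7678, Pbrm1 overlaps Gm5459 and Smim4, and Anxa6 overlaps Gm19911. None of these 12 genes passed the edgeR threshold in the fit described above.

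The translation apparatus had efficiency differences near 0. Medians of lists, here and below, depended on single libraries, and 16 of 31 list medians changed sign when a library was left out. Counts of list genes at an unadjusted p under 0.05 in edgeR, above and below, stand beside 6.70% of the set and 5.68% of all genes tested. The 74 cytosolic ribosomal protein genes had 42 above 0 and 32 below, with a median of 0.06 (-0.39 without B cell footprint library 3) and 1 gene at an unadjusted p under 0.05, Rps9 (1.09 ± 0.43 in edgeR). Ribosomal protein mRNAs are known to begin with a C followed by a tract of C and T, which places them under mTOR control. To the RefSeq starts of GRCm38.p6, 1963 genes of the set could be matched. Starts of this form (C and at least 4 further C or T as the first transcribed bases, read on the gene's strand) were searched there. They were found in 71 of the 1963 genes (3.62%), in 3.01% of 27025 genes in the RefSeq table and in 14 of 54 ribosomal protein genes (25.9%). A gene counted without such a start may still use one that the table does not hold. The longest tracts among ribosomal protein genes are shown because they mark the mRNAs on which mTOR is known to act, as the first 24 transcribed bases with the tract in capitals.
Fau (chr19:6057947-6057970, plus strand): CTTCCTCTTTCTTgactccatctt
Rpl15 (chr14:18270963-18270986, minus strand): CTTCCTTTCCTCTggcggcagcca
Rpl35 (chr2:39005108-39005131, minus strand): CTCTTTCTCTCgaaccaggctgct
Rps10 (chr17:27635221-27635244, minus strand): CTTCCTTTCCagcctccgcctcgg
Rps18 (chr17:33955642-33955665, minus strand): CTCTCTTCCacaggaggcctacac

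Efficiency differences of the genes with these tracts lay on both sides of 0. They were 0.11 ± 0.41 for Fau, -0.30 ± 0.44 for Rpl15, -0.64 ± 0.68 for Rpl35, 0.71 ± 0.43 for Rps10 and 0.18 ± 0.57 for Rps18. Fau had 402 and 373 CPM of footprints in B cells against 289 and 368 CPM in T cells, and 2533 and 2080 CPM of mRNA against 2103 and 2070 CPM. Its B cell footprints lay just above those of T cells, and its mRNA levels were close to each other. The 71 genes with such a start had a median of -0.14 (28 above 0, 43 below) against 0.00 for the 1892 with other starts. Within each cell type, the 14 ribosomal protein genes with such a start had a median log2 ratio of footprints to mRNA of -2.75 in B cells and -2.75 in T cells, where all matched genes had 0.33 and 0.33. In these counts ribosomal protein genes thus had few footprints relative to mRNA in both cell types, and to a like extent. How reads that match several genes were counted is not stated, and its part in these ratios was not tested.

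Elongation factors and other mRNAs of the same class lay somewhat towards B cells, with 16 of 21 genes above 0 and a median of 0.33. This median was 0.01 without B cell footprint library 3. It was -0.21 without both B cell libraries numbered 3, a setting chosen after seeing the data. Eif4b, which helps the helicase of initiation, had 304 and 218 CPM of footprints in B cells against 173 and 93.6 CPM in T cells, with mRNA at 432 and 358 CPM against 550 and 436 CPM (1.22 ± 0.48, unadjusted p = 0.0338 in edgeR). Its footprints were apart without overlap. Vim, the intermediate filament protein vimentin, stood at 1.15 ± 0.39 (unadjusted p = 0.0176 in edgeR), Pabpc1, the poly(A)-binding protein, at 0.81, Eef2 at 0.61, Eef1a1 at 0.39 ± 0.51 and Tpt1 at 0.02 ± 0.55, a value whose sign depended on scaling. Without B cell footprint library 3, Eef2 stood at 0.05, Eef1a1 at 0.07 and Vim at 0.77, and without T cell footprint library 2 Eif4b stood at 0.80. Eif3m lay on the other side at -0.89, but at -0.11 without T cell footprint library 1. The 22 initiation factors had 11 above 0 and 11 below with none at an unadjusted p under 0.05 in edgeR, and the 14 aminoacyl-tRNA synthetases had 7 and 7, with the glutamyl-prolyl-tRNA synthetase gene Eprs at -1.11 ± 0.45. The 12 mTOR pathway genes had a median of 0.12 (-0.30 without T cell footprint library 2), and Rictor, which defines mTOR complex 2, stood at -0.77 ± 0.33.

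**Figure D4:**
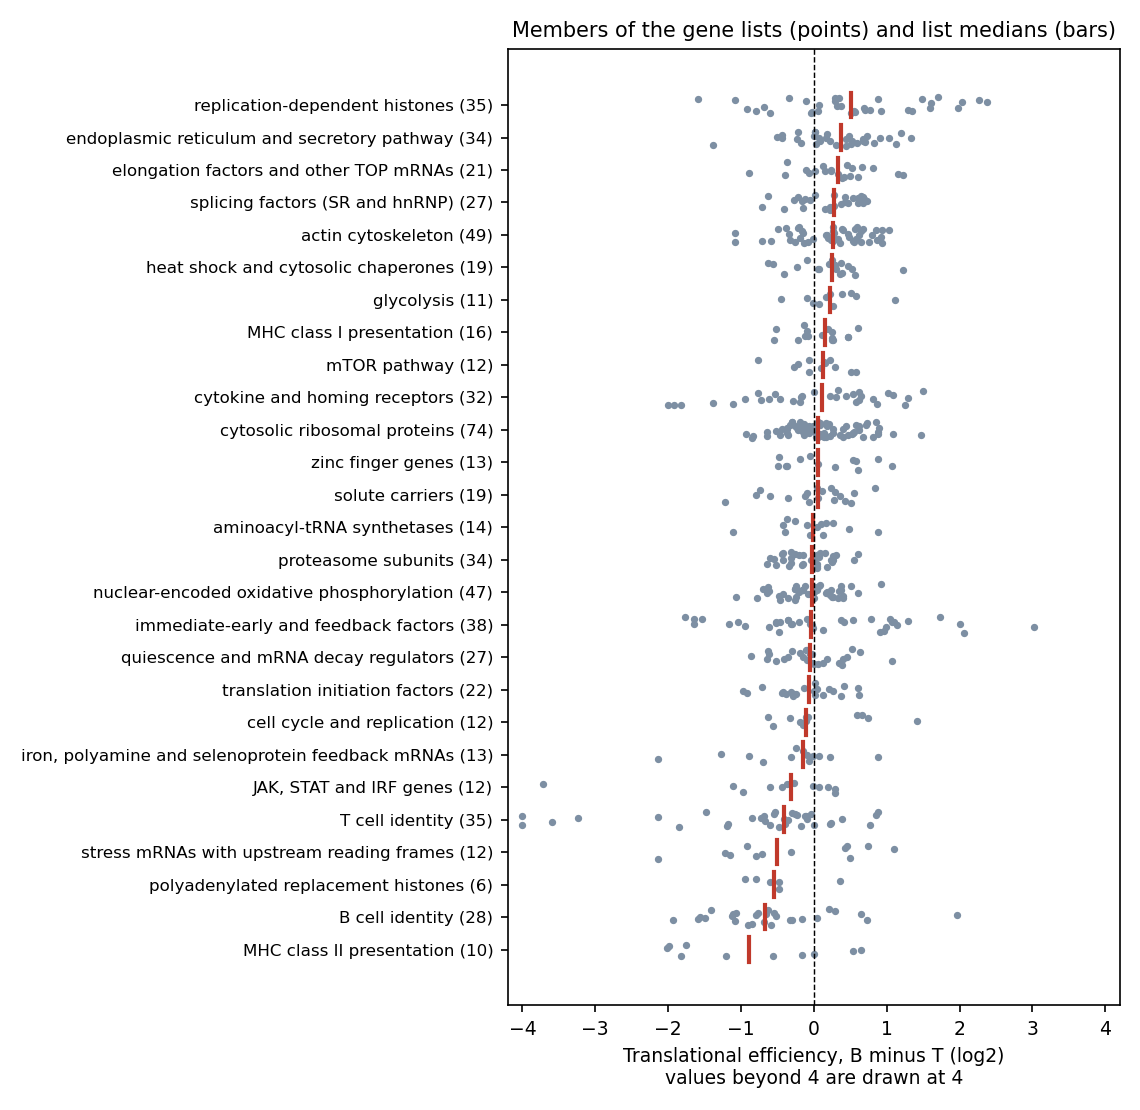
Difference in translational efficiency (B minus T, log2) of the genes in each list with 6 or more genes in the set, a point for each gene and a red bar for the list's median, with the number of genes in parentheses. Most list medians lie within 0.5 of 0, MHC class II presentation has the lowest at -0.89 and replication-dependent histones the highest at 0.52, which was -0.19 without B cell footprint library 3.

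Among the housekeeping lists, those of oxidative phosphorylation and the proteasome had medians close to 0, and glycolysis lay somewhat above 0. Nuclear-encoded oxidative phosphorylation had 21 genes above 0 and 26 below (median -0.03), with Uqcrh, a hinge protein of complex III, at -1.07 ± 0.45. Proteasome subunits had 17 and 17 (median -0.02). Glycolysis had 8 and 3 (median 0.22, but -0.04 without T cell footprint library 2), with Gapdh at 0.07 ± 0.43 and the hexokinase gene Hk1 at 1.11 ± 0.49. Hk1 stood at 1.95 without T cell footprint library 1 and at 0.63 without library 2, which held 8 counts of this gene. Solute carriers had 11 and 8 (median 0.05), with the bicarbonate transporter gene Slc4a7 at -1.22 ± 0.36. Actb, at 0.59 ± 0.65, did not pass the test either, in a list of 49 actin cytoskeleton genes with a median of 0.27, which was -0.08 without T cell footprint library 2 and -0.02 without B cell footprint library 1.

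Genes of the endoplasmic reticulum and secretory pathway lay more often towards B cells, with 27 of 34 above 0 and a median of 0.37. The median was 0.11 without B cell mRNA library 3, 0.11 without T cell mRNA library 1, 0.15 without T cell footprint library 2 and 0.18 without B cell footprint library 3. It was 0.03 without both B cell libraries numbered 3. At an unadjusted p under 0.05 in edgeR there were 3 of the 34 towards B cells and 1 towards T cells. These shares were 2.51% and 4.19% in the set, and 2.83% and 2.85% over all genes tested. Txndc5, a protein disulfide isomerase, had 292 and 400 CPM of footprints in B cells against 54.3 and 53.5 CPM in T cells, with mRNA at 283 and 228 CPM against 124 and 77.6 CPM (1.34 ± 0.47). Its value in T cell footprint library 2 rests on 8 counts. Rpn1, a subunit of the oligosaccharyltransferase, had 292 and 236 CPM against 131 and 73.5 CPM, with mRNA at 121 and 109 CPM against 96.2 and 120 CPM (1.20 ± 0.43). Footprints of both genes were apart without overlap, while the mRNA of Rpn1 overlapped. Pdia6, another disulfide isomerase, stood at 0.91 ± 0.36. Xbp1, the transcription factor of the unfolded protein response, was the gene on the other side at -1.38 ± 0.52. Plasma cells are rich in this pathway, and their markers differed between libraries. The sum of 4 such markers was 1173 and 2736 CPM in B cell footprints, 329 and 494 CPM in T cell footprints, 1540 and 375 CPM in B cell mRNA and 1163 and 125 CPM in T cell mRNA, and their part in these values was not tested. Txndc5 overlaps Bmp6, Pdia6 overlaps Atp6v1c2 and Rpn1 overlaps Mir6376.

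Replication-dependent histones had a median of 0.52, with 25 of 35 genes above 0. At an unadjusted p under 0.05 in edgeR 3 of the 35 lay towards B cells, as did 2.51% of the set and 2.83% of all genes tested. The direction of the list rested on single libraries, with a median of -0.19 without B cell footprint library 3 and -0.49 without T cell mRNA library 1. Their mRNAs lack a poly(A) tail, so a TruSeq RNA v2 library, which is made from polyadenylated RNA, holds few of them, and the ratio rests on very low mRNA levels. Hist1h2be, a core histone H2B gene, had 349 and 582 CPM of footprints in B cells against 169 and 241 CPM in T cells, but 0.910 and 0.772 CPM of mRNA in B cells against 2.34 and 1.45 CPM in T cells (2.37 ± 0.58). Footprints were higher and mRNA lower in B cells, both without overlap. Hist1h1e, a linker histone gene, had 853 and 1064 CPM of footprints against 291 and 414 CPM with overlapping mRNA of 3.01 to 5.22 CPM (1.49 ± 0.51), and Hist1h3e stood at 2.27 ± 0.71. The 6 replacement histones, whose mRNAs are polyadenylated, had 1 gene above 0 and 5 below with a median of -0.54, which was -1.02 without B cell footprint library 3.

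Genes of lineage identity lay more often below 0 than above it, for both lineages. The 28 B cell identity genes had 6 above and 22 below (median -0.67), the 35 T cell identity genes 6 above and 29 below (median -0.41), and the 10 MHC class II genes 3 above and 7 below (median -0.89). Without each library in turn the medians ran from -1.44 to -0.41 for B cell identity and from -1.74 to -0.40 for MHC class II, with the ends without T cell footprint libraries 1 and 2. For T cell identity the median was 1.88 without B cell mRNA library 3 and -1.69 without B cell footprint library 3. Spib, an ETS factor of B cells, had 365 and 314 CPM of footprints in B cells against 15.1 and 13.4 CPM in T cells, with mRNA at 478 and 730 CPM against 8.63 and 9.92 CPM (-1.49 ± 0.51). Its T cell footprints rest on 10 and 2 counts. The gap between cell types was wide in both assays and wider in mRNA. H2-Aa, the alpha chain of the class II molecule I-A, had 9111 and 10440 CPM of footprints against 366 and 889 CPM, with mRNA at 6036 and 4970 CPM against 40.6 and 131 CPM (-2.02 ± 0.84), and Cd79a, a signalling chain of the B cell receptor, stood at -1.60 ± 0.75 (-2.40 and -0.83 without T cell footprint libraries 1 and 2). In the T cell libraries, the median B cell marker stood at a larger share of its B cell level in footprints (1.49% and 5.27%) than in mRNA (0.667% and 1.69%). The part of this in the efficiency values was not tested.

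Grouped by their mRNA difference in the fit of all 8 libraries, genes at both extremes lay more often below 0. The 75 genes with mRNA at least 8-fold higher in B cells had 14 above 0 and 61 below (median -0.65), and the 59 genes with mRNA at least 8-fold lower had 21 above and 38 below (median -0.38). The 175 genes with mRNA lower in B cells by 2-fold to 8-fold ran the other way, with 118 above and 57 below (median 0.35). An unadjusted p under 0.05 in edgeR was seen in 15.4% of these, against 6.70% of the set. The 166 genes with mRNA higher by 2-fold to 8-fold had 83 above and 83 below (median -0.01). The 2078 genes with mRNA within 2-fold had a median of -0.01. Since the mRNA counts enter the efficiency as well, these values are not independent of the grouping. The grouping was not repeated without B cell mRNA library 3, a removal that moved the T cell identity median from -0.41 to 1.88. Among T cell genes, Cd3e stood at -0.60 ± 1.46 and Cd4 at -0.10 ± 1.56, with signs that changed when single libraries were left out. Without mRNA library 3 of B cells, the one with the highest share of T cell markers, they were 1.69 and 2.40. Cd6, Cd247 and Ramp3 had no footprint count in B cells and thus entered the set through their T cell footprints alone. Against 3 counts over the group, and with both B cell mRNA libraries, their efficiency was lower in B cells by 1.59, 1.53 and 1.51 or more (log2). A low B cell side was thus part of how they entered, so the bounds are not separate support for a difference. These bounds depend on the mRNA as well. For Cd247 it stood at 10.1 CPM in B cell mRNA library 1 and 48.4 CPM in library 3, and no bound was computed without library 3. The median of the T cell identity list was the same, -0.41, with Cd6 and Cd247 at these bounds.

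Immediate-early and feedback factors spread widely, with quartiles of -0.50 and 0.98 around a median of -0.04. Myc, a transcription factor of growth, had 1194 and 773 CPM of footprints in B cells against 69.3 and 160 CPM in T cells, with mRNA at 439 and 260 CPM against 189 and 124 CPM (2.06 ± 0.66, unadjusted p = 0.0131 in edgeR). Both assays were higher in B cells, footprints by the larger factor, and the difference was 1.36 without T cell footprint library 1. Nfkb2, an NF-kappaB subunit gene, had 235 and 282 CPM of footprints against 214 and 368 CPM, with mRNA at 219 and 266 CPM against 93.4 and 75.7 CPM (-1.65 ± 0.45). Its footprints overlapped and its mRNA was higher in B cells, as for Birc3. Jun varied within groups, with 1190 and 309 CPM of footprints in B cells and 1987 and 358 CPM of mRNA in T cells (3.02 ± 1.21). Crem, a cAMP-response factor, and Dusp10, a phosphatase of stress kinases, stood at -1.77 ± 0.58 and -1.64 ± 0.65.

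**Figure D5:**
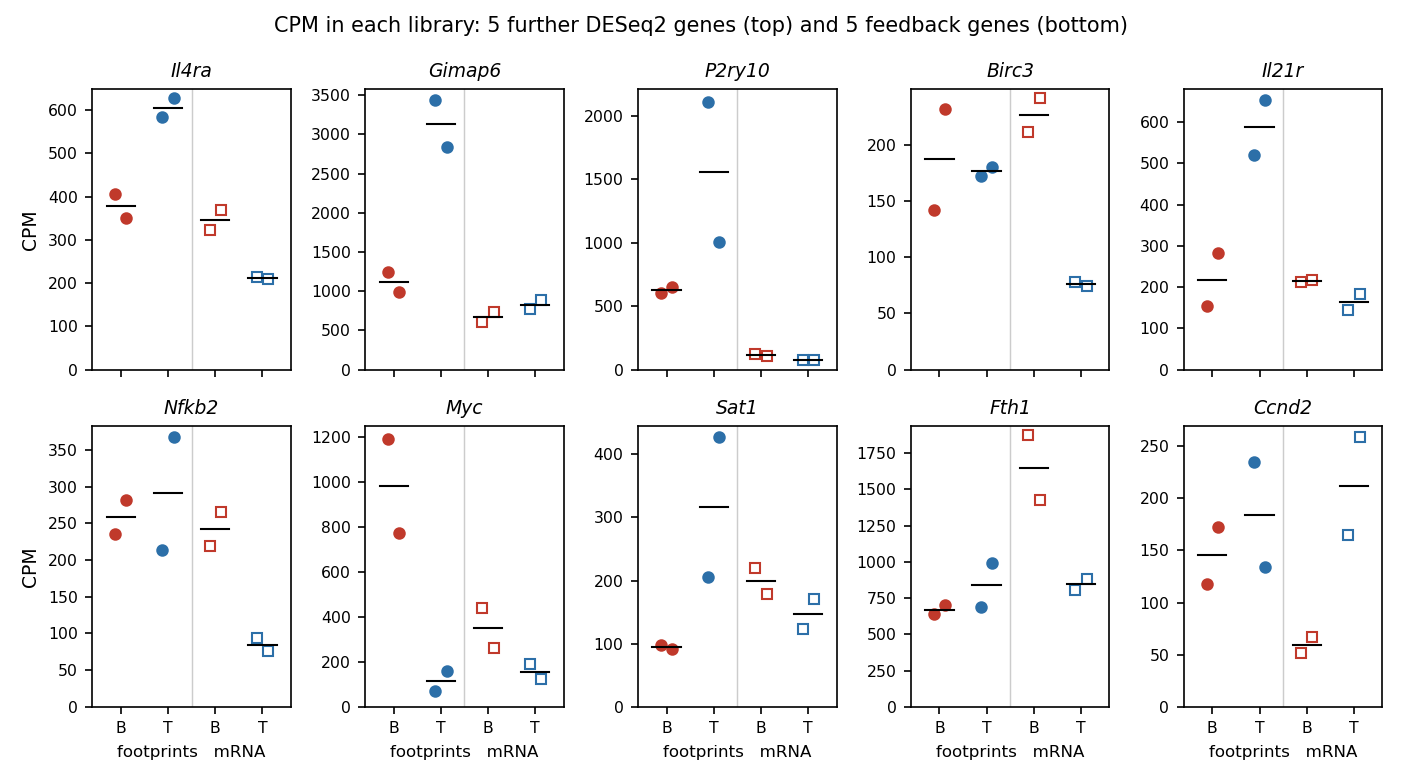
CPM in each library for 5 further genes called by DESeq2 (top) and 5 genes of feedback and growth control (bottom). Filled circles are footprints, open squares mRNA, red B cells and blue T cells, bars are means of 2 libraries, and each panel has its own scale from 0. For Birc3, Nfkb2 and Fth1 the gap between cell types is larger in mRNA than in footprints, and for Gimap6 and Sat1 it is larger in footprints.

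Among mRNAs with known translational feedback, 2 genes lay towards T cells. Sat1, the enzyme that acetylates polyamines and whose mRNA is known to be held back from translation when polyamines are scarce, had 97.4 and 90.9 CPM of footprints in B cells against 205 and 428 CPM in T cells, with mRNA at 220 and 179 CPM against 123 and 170 CPM (-2.14 ± 0.54, unadjusted p = 0.00360 in edgeR). Footprints were higher in both T cell libraries and mRNA in both B cell libraries. Fth1, the ferritin heavy chain whose mRNA carries an iron-responsive element, had 637 and 704 CPM of footprints against 689 and 989 CPM, with mRNA at 1872 and 1425 CPM against 806 and 882 CPM (-1.28 ± 0.43, unadjusted p = 0.0168 in edgeR). Its footprints overlapped while its mRNA did not. In the list of 13 iron, polyamine and selenoprotein mRNAs 3 lay above 0 and 10 below with a median of -0.16. The 12 stress mRNAs with upstream reading frames, in which Sat1 is also listed, had 5 and 7 (median -0.51), with Atf4 at -1.15 ± 0.82. Odc1, the first enzyme of polyamine synthesis, stood at -0.89 ± 0.69. Atf4 was -2.28 without B cell footprint library 3, and Odc1 was -1.74 without T cell mRNA library 1 and -0.34 without B cell mRNA library 1.

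Other lists held few genes away from 0. The 27 quiescence and mRNA decay regulators had a median of -0.06, and Pdcd4, an inhibitor of initiation, stood at 0.53 ± 0.39 (0.15 without T cell footprint library 2). The 27 splicing factors had 18 above 0 and 9 below (median 0.28), and the 19 heat shock and cytosolic chaperones 14 and 5 (median 0.26), with none at an unadjusted p under 0.05 in edgeR in any of these 3 lists. Without B cell mRNA library 3 the medians of the last 2 were 0.04 and -0.16. The 12 cell cycle and replication genes had a median of -0.11. Ccnd2, the G1 cyclin D2, had 118 and 173 CPM of footprints in B cells against 235 and 134 CPM in T cells, with mRNA at 52.0 and 67.4 CPM against 164 and 259 CPM (1.42 ± 0.52). Its footprints overlapped between the cell types and its mRNA was lower in both B cell libraries. Mcm5, a subunit of the replication helicase, stood at 0.75 ± 0.32, with an unadjusted p of 0.0453 in edgeR. The 16 MHC class I presentation genes had 9 above and 7 below (median 0.15), and B2m, the light chain of class I molecules, stood at 0.20, both with the opposite sign without T cell footprint library 2 (-0.19 and -0.19). Further genes given above overlap other annotated genes, so their counts may include reads of those. They include Nfkb2, Ccnd2, Crem, Hist1h2be, Hk1, Uqcrh, Il6ra, Jak1, Actb, Pdcd4, Eif3m, Odc1, Cd247 and B2m. Eef2 and Tpt1 overlap the small nucleolar RNA genes Snord37 and Snora31.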

How the data were processed

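Per the labels and the values, the authors deposited whole-number read counts per gene for 8 libraries, with no row for unassigned reads. Per the submitters' processing notes, FastQC, Bowtie2, TopHat, HTSeq and the mm10 build were used. Versions, the annotation release, the counted feature, the use of strand and the handling of rRNA reads were not given in the sources used here. Gene coordinates, overlaps and starts come from RefSeq on GRCm38.p6, matched by Ensembl ID, then by symbol, then by a unique synonym.

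From these counts, translational efficiency was tested in edgeR 4.0.16 (R 4.3.3) as the interaction of assay and cell type over all 8 libraries. The fit used TMM scaling, filterByExpr by group (minimum count 10, minimum total 15) and the quasi-likelihood test with 4 residual degrees of freedom. Benjamini-Hochberg adjustment ran across all 13227 genes in the model at 0.05. The filter did not ask for 10 counts in every library, and a gene could pass on its mRNA alone. T cell footprint library 2 had counts for 9450 genes. DESeq2 1.42.0, limma 3.58.1 (voom), other scalings and filters, a replicate block and the removal of each library were alternatives. The model was tested on simulated data. Most genes were named by rule. Since none passed, these were the 6 per direction with the smallest unadjusted p among those with 5 CPM or more in each group and ratios that did not overlap (0.5 CPM added), leaving out receptor segments, predicted genes and small RNAs. To these were added up to 3 genes per list for 32 lists, a fixed set of reference genes and the genes called by DESeq2. Further genes were named outside this rule and were not followed under the alternatives. Among them were Ifnar1, Ifngr1, Ifngr2, Il2rg, Pdia6, Hist1h1e, Jun, Dusp10 and Mcm5. The genes and lists were chosen with earlier results of these data known. List medians and counts are descriptions without a test. Libraries of a group differed by more than counting noise. Mitochondrially encoded genes had no gene in the set.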

Additional observations from a re-analysis of the deposited data

How the results depend on the processing

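The count of 0 genes in either direction was also found with RLE, upper-quartile and within-assay TMM scaling, scaling without abundant gene classes, limma voom, a test against a 1.5-fold change, no low-count filter, a mean of 10 footprint counts, and without each library in turn (0 to 0). DESeq2 called 2 higher and 8 lower. The numbers 1 and 3 are shared by the B cell libraries of both assays, and 1 by the T cell libraries. With the replicate block 28 genes were higher and 9 lower, 20 of these 37 immunoglobulin genes, on 1 residual degree of freedom. With the block, adjusted p was 0.00247 for Slpi, 0.00902 for Myc, 0.0149 for Stat5a, 0.0294 for Gabpb1 and 0.0311 for Hist1h2be in edgeR. B cell deviations of same-numbered libraries correlated by 0.109 over genes (0.124 without immunoglobulin genes), and the T cell numbers could not be checked this way. In B cells number 1 did not pair the assays, since Xist had 2362 counts in mRNA and 0 in footprints, where Y-linked genes had 8 and 72. The cause of these differences was not tested. All 10 DESeq2 genes and all 12 genes given by rank kept their direction in every setting. Both sets were chosen by their values in these same libraries, the 12 also for ratios that did not overlap. A kept direction was thus largely fixed by the choice and is not separate support. The median of the set fell by more than 0.1 without B cell footprint library 1 (by 0.16), T cell footprint library 2 (0.18), T cell mRNA library 1 (0.16), B cell mRNA library 3 (0.10) or, chosen after seeing the data, both B cell libraries numbered 3 (0.18).

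Of 589 list medians under the alternatives, 67 moved by more than their spread between libraries, and 15 of 31 lists kept their sign without each library in turn. Single genes changed sign. Tpt1 stood at -0.014 with RLE and -0.014 with upper-quartile scaling, -0.040 with TMM within assay, -0.036 without abundant classes, -0.049 with DESeq2, -0.12 with voom, -0.034 without filter and -0.20 with the block. The block also gave -0.28 for Actb, 0.0019 for Cd79b, -0.079 for B2m and -0.13 for Tmsb4x, and voom gave 0.39 for Cd4. Without both B cell libraries numbered 3, values were -0.030 for Larp1, -0.085 for Slc2a1, -0.56 for Gapdh, -0.21 for Eef1a1, -0.087 for Eef2, -0.74 for Tpt1, 0.27 for Cd4, 0.43 for Lck and -0.11 for B2m.
Leaving out each library in turn gave these ranges: Dars -0.071 to 1.32, Mrpl9 -1.38 to 0.20, Ctss -0.085 to 1.01, Jak1 -0.039 to 0.39, Cd3e -3.46 to 1.69, Cd4 -2.25 to 2.40, Bcl2 -0.70 to 0.018, Gapdh -0.38 to 0.24, Tpt1 -0.55 to 0.25, Mrpl54 -0.32 to 0.77, Ighm -0.26 to 1.76, Actb -0.0065 to 1.20, Cd79b -2.21 to 0.33, B2m -0.19 to 0.43, Tmsb4x -0.076 to 0.73, Zap70 -0.021 to 2.78, Lck -1.08 to 0.47 and Igkc -0.98 to 2.85.
With a median standard error of 0.44, differences of the size of most list medians could not be resolved for single genes. Over ranges of rising footprint counts within the set, this median was 0.44, 0.43, 0.47 and 0.51. It was thus highest for the genes with the most footprint counts, and what sets its size was not tested. In B cells 44 genes had under 10 footprint counts, and in T cells 12.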

Other observations

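Receptor genes and small RNAs of the set were outside the rule for named genes. Of 33 immunoglobulin genes 27 lay above 0 and 6 below, with a median of 1.90. An unadjusted p under 0.05 in edgeR was seen in 2 of the 33, near the 6.70% of the set and 5.68% of all genes tested. Ighm, the heavy chain of IgM, had 14235 and 12758 CPM of footprints in B cells against 573 and 2005 CPM in T cells, with mRNA at 12809 and 9121 CPM against 2488 and 933 CPM (0.72 ± 0.90). Genes of class-switched antibodies differed most between mRNA libraries of the same cell type. Ighg2c, a constant region of IgG, had 974 and 204 CPM of mRNA in B cells and 1063 and 16.5 CPM in T cells, with footprints at 2550 and 6877 CPM against 173 and 154 CPM (4.71 ± 2.05). Its T cell mRNA library 1 thus stood above both B cell libraries, while its B cell footprints stood above both T cell libraries. Jchain, the joining chain of secreted antibodies, had the same order in mRNA, at 1364 and 249 CPM in B cells and 1041 and 59.4 CPM in T cells (2.55 ± 1.68). Immunoglobulin genes took 1.54% of counts in T cell mRNA library 1 and 0.185% in library 4. The 4 T cell receptor genes all lay below 0, with a median of -1.26.

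The 54 small structured RNAs of the set, mostly small nucleolar and nuclear RNAs, had a median of 282 CPM in B cell footprints and 433 CPM in T cell footprints, against 0.111 and 0.190 CPM in mRNA. Their differences ran from -4.51 to 5.09 with 22 above 0 and 32 below. These RNAs are not translated, and their ratio of footprints to mRNA is not a translational efficiency. Malat1, a nuclear long noncoding RNA, had 69.0 and 72.7 CPM in B cell footprints and 69.3 and 200 CPM in T cell footprints, with 456 and 462 CPM of mRNA in B cells and 289 and 335 CPM in T cells.

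Sex-linked transcripts differed between libraries of the same mRNA group. Xist was counted 2362 times in B cell mRNA library 1 and 2 times in library 3, where the Y-linked genes had 8 and 1616 counts. In T cell mRNA library 1 Xist was counted 1437 times and in library 4 it was counted 3 times, against 6 and 1575 Y-linked counts. In footprints the Y-linked genes had 72 and 53 counts in B cells, against 3 and 35 in T cells. Sex was thus uneven over the 4 groups from which each efficiency difference is formed, and its part in those values was not tested.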
